A study of Mus musculus with 4 samples.

Results

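Type A intercalated cells are acid-secreting cells of the collecting duct and connecting tubule, and 558 of the 6546 cells kept from an untreated mouse kidney library met their selection rule (8.52%, exact Clopper-Pearson 95% interval 7.86 to 9.23). They were selected on their own transcripts. Counts of unique molecular identifiers (UMIs, which mark single captured RNA molecules) of Slc4a1 and Aqp6 together had to reach 5 per 10000 UMIs of the cell, with at least 3 such UMIs in number, and Aqp2 had to stay below 5 per 10000. Cells were kept with 500 or more UMIs, 300 or more genes and a mitochondrial share of UMIs up to 50%, and the whole series held 24410 of them in 4 libraries.

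The mice carried BAC-CluGFP, a bacterial artificial chromosome reporter that ties green fluorescent protein (GFP) to clusterin, the product of Clu. Their kidneys were digested, GFP+ cells were collected by flow sorting, and 10x Genomics 3′ libraries were made. The untreated library is described here, and the other 3 libraries followed ischemia-reperfusion injury (IRI) of 35 min by 2, 7 and 30 days. Every group carried the transgene and passed the same sort, and each is 1 library; no source used here gives the number, age or sex of the animals. All values therefore describe these libraries, no p-value is given, and the intervals cover counting error only. The fluorescent protein's own transcript was not analysed here, so a cell's passage through the sort rests on the label.

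Type A intercalated cells take up carbon dioxide, hydrate it with cytosolic carbonic anhydrase and split the product into a proton and bicarbonate. A vacuolar proton pump in the apical membrane moves the proton into the urine, and the anion exchanger AE1, the product of Slc4a1, returns bicarbonate to the blood. Type B intercalated cells carry out the opposite exchange with pendrin, the product of Slc26a4, and principal cells of the same epithelium take up sodium and water through ENaC channels and aquaporin-2.

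The selected cells held 2358 to 27300 UMIs each, with a median of 9281.5 UMIs and 3139 genes. Their median mitochondrial share was 12.7%. For comparison, 593 principal cells were chosen from the same library by Aqp2 of at least 5 per 10000 with Slc4a1 and Aqp6 below 5. A further 229 type B-like cells were chosen by Slc26a4 and Slc4a9 together reaching 5 per 10000, with the type A genes and Aqp2 below 5. Median depth was 7155 UMIs in principal and 10960 in type B-like cells, with mitochondrial medians of 14.3 and 15.1%. The 5988 kept cells outside the type A class had a median of 4748.5 UMIs. Reference classes for free RNA were 3570 proximal tubule cells, chosen by Lrp2 and Slc34a1, 262 thick ascending limb cells, chosen by Slc12a1, and 81 endothelial cells. Of the untreated barcodes, 41 also occurred in another library, and 5 of these were type A cells. The doublet caller Scrublet marked 1 of 9286 untreated barcodes by its threshold, which thus did not work, so no doublets were removed. Its scores are used below only as a ranking, and whether high scores mark doublets was not tested.

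The genes of the rule are given as a description only. Aqp6, an intracellular anion-permeable aquaporin of these cells, and Slc4a1 were found together in 530 of the 558 cells, whereas 22 had Slc4a1 alone and 6 had Aqp6 alone. Their sum ran from 5.03 to 67.9 per 10000 UMIs, with a median of 18.4. Summed over the class, Slc4a1 stood at 1039.8 UMIs per 1000000 UMIs of the class (CPM) and Aqp6 at 942 CPM. Aqp2 was without a UMI in 431 of the cells. Near the lower edge, 10 cells lay at 5 to 6 per 10000 and 12 others lay just outside, at 4 to 5 per 10000. A group of 40 cells passed the type A minimum but had Aqp2 at or above 5 per 10000. These 40 had a median of 16788 UMIs, above that of the selected cells, and carried 1964 CPM of Atp6v1g3 beside 863 CPM of the principal cell channel gene Aqp3.

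**Figure D1:**
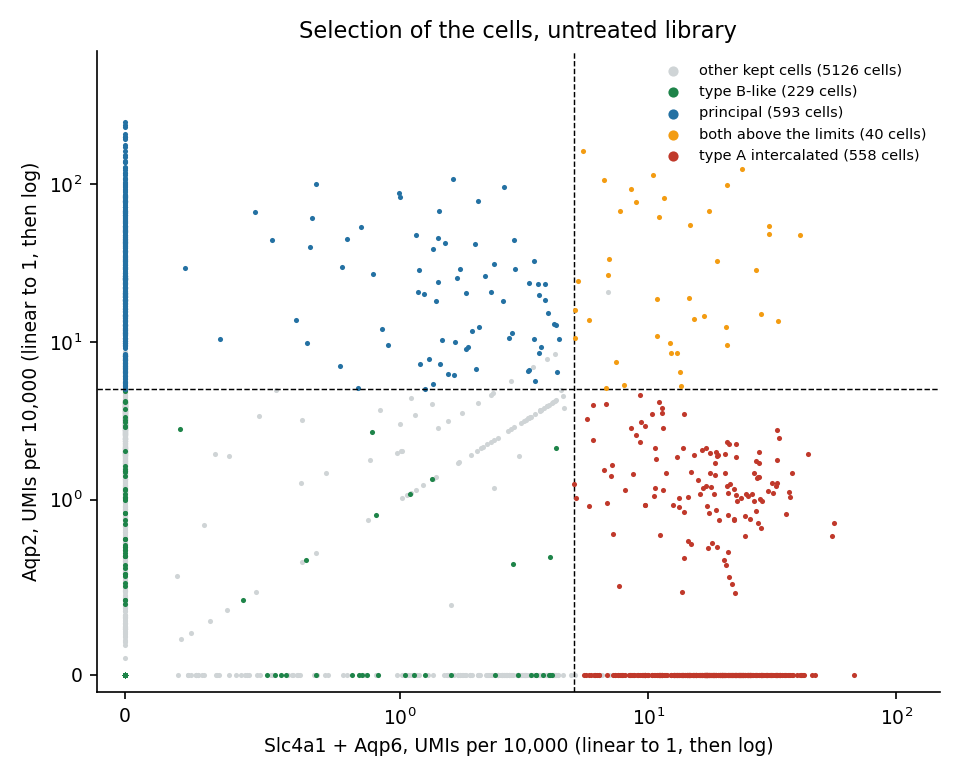
Each point is 1 kept cell of the untreated library, with Slc4a1 and Aqp6 UMIs per 10000 on the x axis and Aqp2 UMIs per 10000 on the y axis (both linear up to 1 and logarithmic above), and dashed lines at 5. The 558 type A cells fill the lower right, the 593 principal cells the upper left, and 40 cells lie past both lines; a grey point there had fewer than 3 UMIs of the type A genes.

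The label was checked with 2 genes that the rule did not use. Atp6v1g3, a kidney form of the proton pump's G subunit, stood at 4904 CPM (Poisson 95% interval 4844 to 4964) in the selected cells. It stood at 342 CPM in principal cells, at 86.3 CPM in the proximal tubule reference and at 6515 CPM in type B-like cells. After each cell was thinned to 2000 UMIs, 99.1% of type A cells had an Atp6v1g3 UMI, against 12.8% of principal and 9.13% of proximal tubule cells (unthinned 99.1, 27.5 and 17.6%, at the depths given above and 4226 UMIs in proximal tubule). Foxi1, the forkhead transcription factor required for intercalated cells, stood at 376 CPM, against 30.2 CPM in principal and 334 CPM in type B-like cells. Thinned, 46.1% of type A, 2.19% of principal and 0.840% of proximal tubule cells had a Foxi1 UMI (unthinned 81.4, 6.07 and 1.82%). Both genes thus stood high in the class, and both were shared with the type B-like cells. Of 891 kept cells with at least 10 Atp6v1g3 UMIs per 10000, 550 were selected type A cells, 208 were type B-like, 22 principal, 29 past both minimums and 82 none of these.

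Across the transcriptome, genes were counted as higher or lower from a 2-fold difference in CPM on, among those with at least 20 CPM in either class and 20 UMIs in both together. Against principal cells 6619 genes were measured, of which 467 (7.06%) were higher and 487 (7.36%) lower in type A cells. The median log2 difference over these genes, computed with 10 CPM added to each level, was 0.07. Against all other kept cells 772 of 6672 (11.6%) were higher and 780 (11.7%) lower, around a median of 0.25. With that median set to 0, the split became 518 higher and 896 lower. Against type B-like cells 289 of 6238 (4.63%) were higher and 103 (1.65%) lower, around a median of 0.16. UMIs count molecules from 3′ ends and were not divided by gene length.

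The proton pump is the acid-secreting machinery of these cells. All 5 kidney forms of its subunits were higher in type A than in principal cells, where the background share of higher genes was 7.06%, and the list's median log2 difference was 3.42. Atp6v0d2 stood at 929 against 55.8 CPM, a ratio of 16.6 (95% interval 14.8 to 18.8). The ratio was 14.4 (13.7 to 15.1) for Atp6v1g3 and 12.2 (10.9 to 13.6) for Atp6v1c2, both cytosolic-domain subunits. Atp6v1b1 and Atp6v0a4, the subunit genes mutated in inherited distal renal tubular acidosis with deafness, stood at 864 and 1351 CPM in type A cells. In principal cells they stood at 186 and 294 CPM. The proximal tubule reference had 17.7 CPM of Atp6v1b1 and 152 CPM of Atp6v0a4, so principal cells carried more of both than proximal tubule cells.

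The subunits used in all tissues differed in whether they followed the kidney forms. Of 17 on the list, 15 were measured against principal cells. Of these, 6 were higher and 1 was lower (7.06% and 7.36% over all genes), and 8 differed less than 2-fold. The list's median log2 difference was 0.57. Atp6v1d had the largest ratio of the 6, at 4.25 (3.96 to 4.56), followed by Atp6ap1 at 3.30, Atp6v0b at 3.24, Atp6v1e1 at 2.99, Atp6v1a at 2.51 and Atp6v1h at 2.20. These genes have no kidney-specific counterpart on the list. Of the shared forms that do have one, Atp6v1b2 stood at 82.9 CPM, Atp6v1c1 at 68.9 CPM and Atp6v0a1 at 21.5 CPM in type A cells. Atp6v1g1, the general form of the G subunit, stood higher, at 361 CPM (345 to 377) against 289 CPM in principal cells. None of these 4 differed 2-fold from principal cells. Atp6v0d1, the general form of the d subunit, was lower at 41.6 against 94.4 CPM, a ratio of 0.441 (0.374 to 0.518). Against type B-like cells none of the 5 kidney and 16 shared subunits measured differed 2-fold. Over all genes 4.63% were higher and 1.65% lower there, so finding none among so few genes is near these shares. The ratio to type B-like cells ran from 0.753 for Atp6v1g3 to 1.30 for Atp6v1b1 among the kidney forms.

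**Figure D2:**
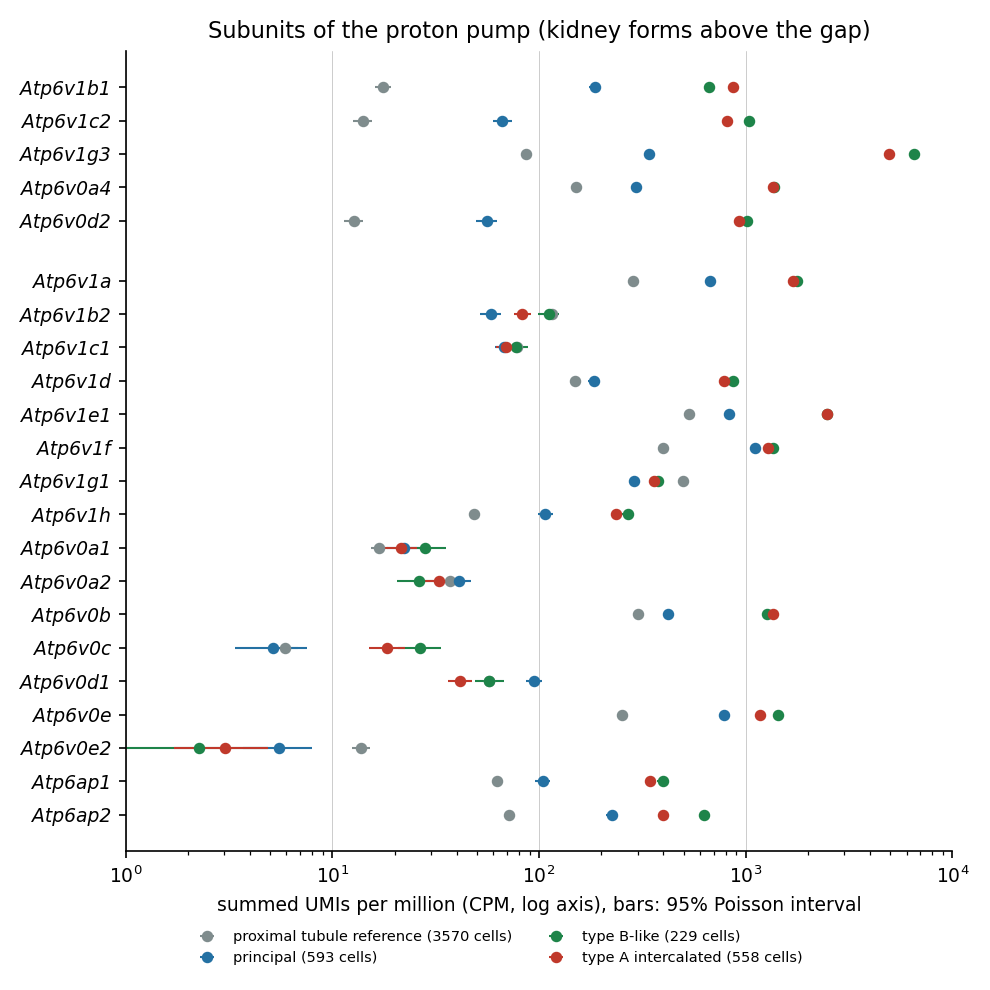
The summed level of each proton pump subunit gene in CPM (log axis) is shown for type A, principal, type B-like and proximal tubule reference cells, with 95% Poisson intervals as bars. The 5 kidney forms above the gap and Atp6v1d, Atp6v1e1 and Atp6v0b below it lie together in type A and type B-like cells, whereas Atp6v0d1 is highest in principal cells at 94.4 CPM.

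Because the kidney subunits stood high together with Foxi1, their RefSeq promoters (GRCm38.p6, the same build as the files) were searched for the forkhead letters GTAAACA on both strands. The search covered the 250 bases before each start site. Of the 5 kidney subunits 4 had an entry, and 1 of these, Atp6v1b1, held the letters. None of the 12 shared subunits with an entry did. Among all 32851 promoter entries 1040 (3.17%) did, and by gene 956 of 27025 (3.54%) did. The same search of Slc4a1, Aqp6, Foxi1, Car2, Kit, Adgrf5, Dmrt2, Mme, Bsnd, Clcn5, Hepacam2, Avpr1a, Oxgr1, Slc4a9 and Slc26a4 found no match. How many of these genes had an entry was not counted. The stretch of Atp6v1b1 is shown for its match, at chr6:83742908-83742937 on the plus strand, with the match to the opposite strand in capitals.
Atp6v1b1: accagcttcccTGTTTACagtcaacctggc
The match begins 98 bases before the start site. It is a description of letters, and binding of a factor there was not measured.

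Among genes of acid-base handling, those shared by both intercalated types were the high ones. Car2, the cytosolic carbonic anhydrase, stood at 1932 CPM in type A cells, 539 in principal and 2421 in type B-like cells, a ratio to principal cells of 3.58 (3.44 to 3.74). Car12, a membrane carbonic anhydrase, stood at 249.8, 101 and 720.2 CPM in the same order and was therefore lower than in type B-like cells (ratio 0.347, 0.323 to 0.372). Car15 was at 10.9 CPM against 220.4 CPM in type B-like cells. Of 18 genes on the list outside the rule, 12 were measured against principal cells, with 3 higher and 3 lower (7.06% and 7.36% over all genes) and a median log2 difference of -0.09. The ammonia channels did not follow the pump. Rhbg stood at 713 CPM in type A and 474 CPM in principal cells, and Rhcg at 345 and 556 CPM, neither a 2-fold difference. The gastric proton pump gene Atp4a was lower, at 41.6 against 142 CPM.

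Slc26a7, an anion exchanger known from outer medullary type A cells, had 41 UMIs in the class, or 7.72 CPM, and they lay in 13 cells. The 40 cells past both minimums, which the Aqp2 limit left out, had 77.5 CPM, so the class level depends on that limit. The 13 cells were chosen by this gene, and other genes are given for them as a description. Nupr1, a stress-induced chromatin protein, was at 592 CPM against 81.7 in the others, and Cryab, a small heat shock protein, at 615 against 208 CPM. Their Klk1 was at 2797 against 7231 CPM and their Rgs2 at 180 against 780.4 CPM, the latter a regulator of G protein signalling. Of the rule's own genes, Slc4a1 stood at 1147 CPM (973 to 1344) against 1037 CPM, and Aqp6 at 1545 CPM (1341 to 1771) against 927 CPM. Kit stood at 525 against 843 CPM and Car12 at 547 against 242 CPM. These genes were picked after their values were seen, and 13 cells of 1 library carry no spread between animals.

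Slc4a9, the basolateral exchanger AE4 usually ascribed to type B cells, was found in 334 of the 558 type A cells, and 315 of these had no Slc26a4 UMI. Its level was 107 CPM (98.7 to 117), against 8.79 CPM in principal cells, a ratio of 12.2 (9.03 to 16.9). Thinned to 2000 UMIs, 18.6% of type A cells (15.5 to 22.1) had a Slc4a9 UMI, against 1.35% of principal and 0.560% of proximal tubule cells (unthinned 59.9, 3.54 and 1.04%). Since Slc4a9 helped choose the type B-like class, it was compared with the 212 cells chosen by Slc26a4 alone. There it stood at 152 CPM, so that type A cells had 0.708 times that level (0.620 to 0.808). The other type B genes were low in type A cells. Slc26a4 was at 16.2 CPM, Hmx2, a homeobox factor of type B cells, at 9.61 CPM, and Insrr, an alkali-sensing receptor, at 8.48 CPM. In type B-like cells Hmx2 stood at 546 and Insrr at 279.8 CPM.

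Several sodium and potassium channel genes stood higher in principal cells. Bsnd, which encodes barttin, stood at 125 CPM in type A cells against 48.2 CPM in principal cells, a ratio of 2.59 (2.24 to 3.00). Clcn5, an endosomal chloride-proton exchanger mutated in Dent disease, stood at 464 against 52.9 CPM (ratio 8.76, 7.73 to 9.95). Of the 17 genes measured on the chloride, potassium and sodium list, 3 were higher and 7 lower than in principal cells (7.06% and 7.36% over all genes), and the median log2 difference was -0.48. The lower ones included the ENaC subunit Scnn1g, at 6.4 against 247 CPM, and the potassium channel Kcnj1, at 23.4 against 501 CPM. Scnn1b stood at 101 CPM in type A cells, below the 408 CPM of principal cells and above the 33.1 CPM of type B-like cells. Scnn1a, at 162 against 237 CPM, did not differ 2-fold. Fxyd2, a sodium pump regulator, was lower in type A than in type B-like cells, at 3284 against 9067 CPM. The big potassium channel genes Kcnma1 and Kcnmb4 had 2 and 0 UMIs over all 5308710 UMIs of the type A cells, where a count of 0 allows up to 0.565 CPM.

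Among 17 transcription factors measured against principal cells, 2 were higher and 5 lower, where 7.06% and 7.36% of all genes were. Dmrt2, a doublesex-related factor, stood at 334 CPM in type A cells, 4.40 CPM in principal and 1.5 CPM in type B-like cells. Its ratio was 75.9 (50.4 to 120) to principal cells and 222 (86.5 to 815) to type B-like cells, where only 4 UMIs were counted. Dmrt2 was seen in 88.0% of type A cells and 0.784% of the proximal tubule reference, unthinned. Foxi1, the other higher factor, had a ratio of 12.4 (10.6 to 14.7) to principal and 1.13 (1.04 to 1.22) to type B-like cells. Tfcp2l1, a factor of both collecting duct lineages, stood at 1931 against 1098 CPM, under 2-fold. Gata2, Ehf, Tfap2b, Emx1 and Hmx2 were the lower ones. Hmx2, at 9.61 against 34.8 CPM, had a UMI in 4.12% of type A and 5.73% of principal cells, unthinned. Thinned, the shares were 1.79% (0.863 to 3.27) and 2.53% (1.42 to 4.14), with overlapping intervals. The lower level of Hmx2 thus rests on few cells, and whether principal cells with other type B genes carried it was not tested. Against type B-like cells, Dmrt2, Ehf, Pax2 and Emx2 were higher and Hmx2 lower of 16 measured (4.63% and 1.65% over all genes). In that comparison Emx2 stood at 113 against 25.6 CPM.

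Notch signalling separates principal from intercalated fate in the collecting duct. Its receptor gene Notch2 was at 1.88 CPM in type A against 42.6 CPM in principal cells, whereas Notch1 was at 26 against 4.59 CPM. The ligand gene Jag1 was at 44.8 CPM in type A, 17.2 in principal and 160.2 CPM in type B-like cells. The target Hes1, at 203 against 365 CPM, did not differ 2-fold. Of 6 Notch genes measured against principal cells, 2 were higher and 1 was lower (7.06% and 7.36% over all genes).

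Several receptor genes stood high in type A cells. Of 14 measured against principal cells, 9 were higher and 3 lower (background 7.06% and 7.36%). Kit, the stem cell factor receptor, stood at 835 CPM against 15.9 in principal and 11.7 in type B-like cells, with ratios of 52.6 (42.4 to 66.2) and 71.6 (50.4 to 106). Thinned to 2000 UMIs, 73.3% of type A cells had a Kit UMI, against 1.26% of proximal tubule cells (unthinned 97.1 and 2.47%). Adgrf5, an adhesion G protein-coupled receptor, stood at 1298 CPM against 26 and 82.0 CPM, and at 670 CPM in the endothelial reference. P2ry14, a receptor for UDP-glucose, stood at 55.0 CPM against 1.53 and 0.752 CPM. A second set of receptors was shared by both intercalated types. Oxgr1, a receptor for alpha-ketoglutarate, stood at 253 CPM in type A, 19.1 in principal and 176 CPM in type B-like cells. Avpr1a, the V1a vasopressin receptor, stood at 209, 10.9 and 182 CPM in that order, while Avpr2, the receptor through which vasopressin acts on principal cells, stood at 5.27 against 243 CPM. Hepacam2, an immunoglobulin-family protein, stood at 232 CPM, 20.3 CPM and 317 CPM. The prostaglandin receptors went opposite ways, with Ptger3 at 105 against 12.6 CPM and Ptger1 at 1.51 against 92.9 CPM.

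**Figure D3:**
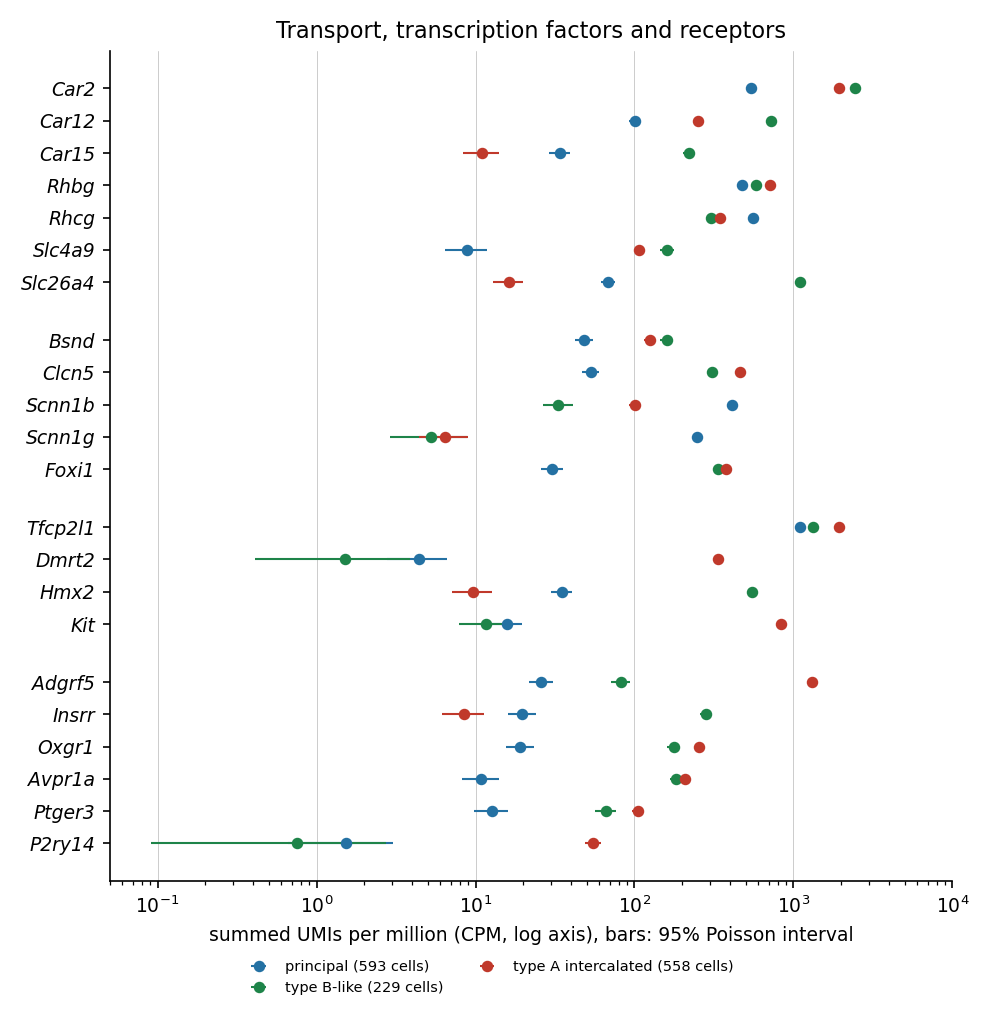
The summed level in CPM (log axis) of transport, chloride and sodium channel, transcription factor and receptor genes is shown for type A, principal and type B-like cells, with 95% Poisson intervals as bars. Dmrt2, Kit, Adgrf5 and P2ry14 are high in type A cells alone of the 3 classes, Foxi1, Slc4a9, Oxgr1 and Avpr1a are shared with type B-like cells, and Scnn1g is high in principal cells.

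The genes with the highest ratio to principal cells, with 10 CPM added to both levels, were Adgrf5, Kit, Cbr2, Mme, Dmrt2, 2610016A17Rik, Atp6v0d2, Atp6v1g3, Serpinb9, Eps8, Tmem61, Rcan2, Serpinb6b, Atp6v1c2 and Rgs2. Mme, the membrane peptidase neprilysin, stood at 1058 CPM against 32.3 CPM in principal and 105 CPM in type B-like cells. Cbr2, a carbonyl reductase, stood at 332 against 2.29 CPM, a ratio of 145 (82.6 to 281). Serpinb9 and Serpinb6b, intracellular protease inhibitors, stood at 561 and 227 CPM against 33.3 and 11.9 CPM. Eps8, an actin regulator, stood at 906 against 61.0 CPM, Rcan2, a calcineurin inhibitor, at 417 against 26.4 CPM, and Rgs2 at 765 against 63.8 CPM. The genes with the lowest ratio were Fxyd4, Hsd11b2, Kcne1, Apela, Calb1, Cav1, Nudt4, Avpr2, Scnn1g and Kcnj1. Hsd11b2, which protects the mineralocorticoid receptor from glucocorticoids, stood at 40.1 against 2503 CPM, and Fxyd4, a sodium pump regulator, at 25.4 against 1868 CPM. Calb1, a calcium-binding protein of the connecting tubule, stood at 146 against 2959 CPM, so the principal class also carried connecting tubule genes. With 10% of each class's UMIs subtracted as free RNA, in the proportions of the whole library, the ratio to principal cells was 100.1 for Kit and 223 for Dmrt2. For Fxyd4 it was 0.00211, against 0.0136 without the subtraction. The 10% was assumed and not estimated. Over all kept cells Dmrt2 stood at 36.5 and Fxyd4 at 264 CPM. Most of the 4.40 CPM of Dmrt2 in principal cells and of the 25.4 CPM of Fxyd4 in type A cells was thus removed. Their ratios after subtraction rest on small remainders.

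**Figure D4:**
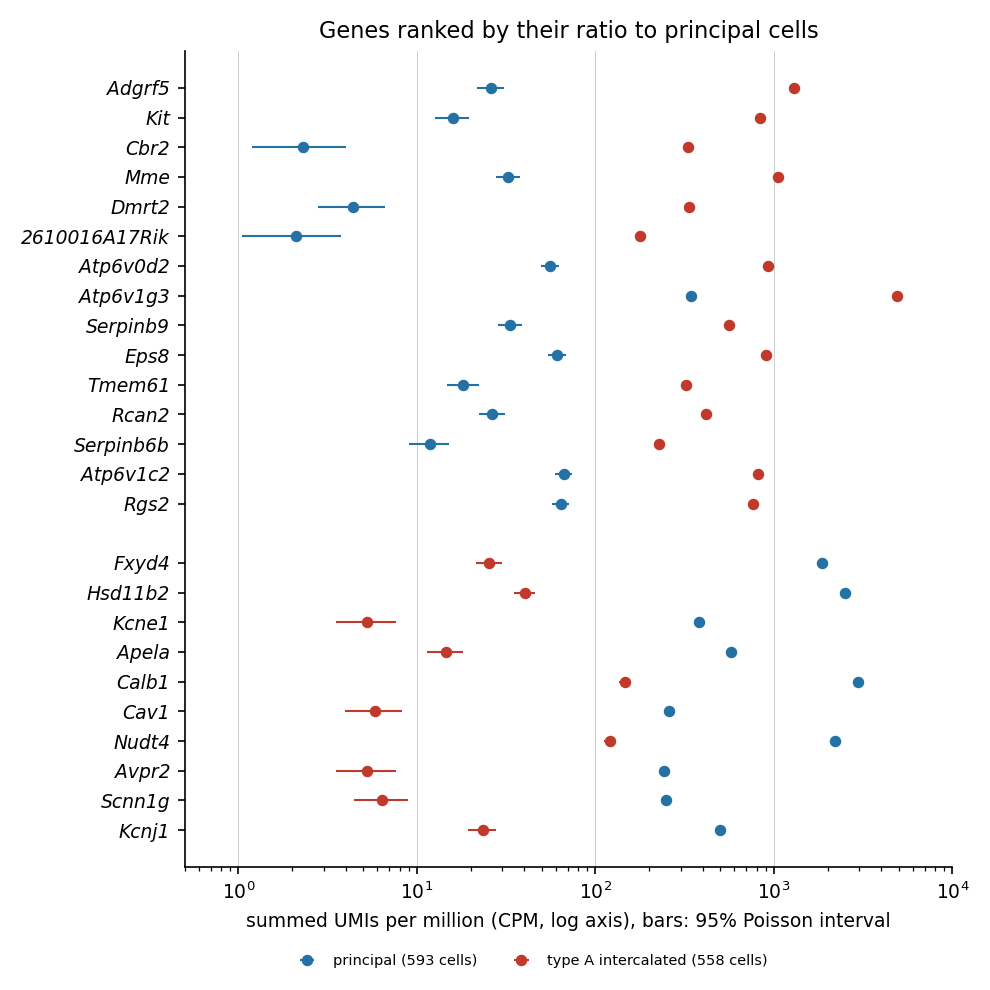
Summed levels in CPM (log axis) with 95% Poisson intervals are shown for the 15 genes with the highest and the 10 with the lowest ratio of type A to principal cells. Adgrf5 lies at 1298 against 26 CPM at the top, and Kcne1 lies at 5.27 against 382 CPM in the lower group.

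Against all other kept cells, which are mostly proximal tubule, the same ranking gave Kit, Dmrt2, Adgrf5, 2610016A17Rik, Mme, Dkk3, Serpinb9, Muc20, Atp6v0d2, Tmem61, Cbr2, Rgs2, Foxi1, Oxgr1 and Rcan2. Dkk3, a secreted dickkopf-family protein, stood at 193 against 7.94 CPM, a ratio of 24.3 (21.6 to 27.4). Muc20, a membrane mucin, stood at 162 against 6.34 CPM. Dmrt2 had a ratio of 82.2 (70.9 to 95.6) and Kit one of 61.7 (56.8 to 67.0). Where the minimum for the class was raised to 10 per 10000, so that the cells dropped joined the others, these became 42.7 and 36.8. With 10% free RNA subtracted they were 288 and 139, with little Dmrt2 left in the other cells. Without the highest Scrublet scores Dmrt2 had a ratio of 132. The reverse ranking against type B-like cells gave Hmx2, Insrr, Igfbp5, Rnase1, Car15, Nbea, Thsd7a and Nudt4 as the lowest. Igfbp5, a secreted growth factor-binding protein, stood at 50.3 against 777 CPM, a ratio of 0.0647, which became 0.0275 without the cells that carried other cell types' genes. Hmx2 and Insrr had ratios of 0.0176 and 0.0303. These became 0.00443 and 0.0122 without those cells, 10 of which were left out for Slc26a4, Hmx2 and Insrr UMIs. For Hmx2 and Insrr the change thus follows from the choice of cells. Igfbp5 was not used in that choice but is high in type B-like cells, so its change is not independent of it. The 8 highest were Kit, Dmrt2, Cbr2, 2610016A17Rik, Adgrf5, Muc20, Mme and Cd24a, of which Cd24a, a surface glycoprotein, stood at 212 against 13.9 CPM.

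Few genes of energy use differed 2-fold from principal cells, where 7.06% of all genes were higher and 7.36% lower. Of 26 nuclear genes of oxidative phosphorylation, 1 was 2-fold higher than in principal cells, Cox7a1 at 222 against 79.3 CPM, and 0 were lower. Their median log2 difference of 0.45 lay above the median of 0.07 and the upper quartile of 0.31 over all genes measured. None of the 13 mitochondrially encoded genes differed 2-fold, and their median was -0.12 against principal cells and -0.53 against all other kept cells. Of 20 citrate cycle and fuel genes measured, only Cpt1a, which admits fatty acids to mitochondria, passed 2-fold, at 59.5 against 150.1 CPM. None of 14 glycolysis genes differed 2-fold from principal cells. Against all other kept cells Hk1, Pfkm, Pkm and Slc2a1 were higher (11.6% over all genes). Slc2a1, the glucose transporter GLUT1, was higher than in type B-like cells, at 90.2 against 29.7 CPM.

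Of the defence genes, Defb1 was the abundant one. Defb1, which encodes a beta-defensin, stood at 2493 CPM in type A cells, 3295 in principal and 460.0 CPM in type B-like cells, a ratio of 5.42 (5.11 to 5.75) to the last. Lcn2, an iron-binding antibacterial protein, had 0.377 CPM (0.0456 to 1.36) against 37.1 CPM in principal cells, and 14 of the 16 genes on the list did not reach the minimum level. In the tubular injury list, 4 of 14 measured genes were higher than in principal cells (7.06% over all genes), namely Sox4, Cdkn1a, Anxa3 and Tmsb10. Another 6 were lower (7.36% over all genes), namely Clu, Lcn2, Krt8, Krt18, Gdf15 and Anxa2. Sox4, a progenitor transcription factor, stood at 266 CPM in type A, 90.0 in principal and 60.2 CPM in type B-like cells. Spp1, osteopontin, stood at 1544 CPM, below the 4275 CPM of type B-like cells. Gdf15, a stress-induced cytokine, was at 2.26 against 154 CPM.

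Immediate-early genes, which are known to respond to tissue digestion, were lower than in principal cells for 7 of 16 (7.36% over all genes), including Fos at 449 against 1376 CPM and Fosb at 37.3 against 294 CPM. Atf3 and Klf4 were higher, Klf4 at 62.4 against 7.65 CPM. Against type B-like cells 5 of 15 were higher and 1, Fosb, was lower (4.63% and 1.65% over all genes). Digestion time was not recorded per cell, and its part in these values was not tested.

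Clu itself, the gene of the reporter used for the sort, stood at 190.4 CPM (179 to 203) in type A cells, at 947 CPM in principal and at 222 CPM in type B-like cells. The principal level was 4.97 times that of type A cells. Per cell, Clu ran from 0 to 33.3 per 10000 UMIs in type A cells with a median of 0, and the 28 cells with the most Clu UMIs held 43.1% of them. Thinned to 2000 UMIs, 20.8% of type A cells (17.5 to 24.4) had a Clu UMI, against 43.5% of principal, 24.0% of type B-like and 7.63% of thick ascending limb cells (unthinned 44.4, 61.6, 59.0 and 20.6%). In proximal tubule cells the share was 10.5% (unthinned 18.6%). The share in type A cells thus lay above those of the thick limb and proximal tubule references and below that of principal cells, while most type A cells had no Clu UMI at this depth.

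The spread of values among the selected cells depended on the gene. The genes also differ in abundance, with a median of 45 UMIs of Atp6v1g3 and 16 of Car2 per cell. How much of each spread was counting error was not computed. Per 10000 UMIs, the quartiles of Atp6v1g3 were 38.3 and 59.9 around a median of 48.8, and those of Car2 were 11.8 and 24.5. Fos had quartiles of 0 and 5.39 with a highest value of 68.6, and its top 28 cells held 34.2% of its UMIs. Cbr2 had quartiles of 0 and 4.78 around a median of 1.44. Klk1, kallikrein, a secreted protease of the connecting tubule, ran from 0 to 745 per 10000 with a median of 55.3. Its class level was 7120 CPM, against 12674 in principal, 18413 in type B-like, 1827 in proximal tubule and 4094 CPM in thick limb cells. S100g, a calcium-binding protein of the connecting tubule, stood at 1058 CPM, and its top 28 cells held 29.4% of its UMIs. These genes were chosen for their spread after it had been seen.

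Type A cells were also split at their median mitochondrial share of 12.7%, into 279 and 279 cells of median depth 9260 and 9299 UMIs, with CPM computed over other UMIs. Of 6753 genes, 6 (0.0888%) were 2-fold higher in the upper group and 12 (0.178%) lower. None of the 21 pump subunits measured differed 2-fold, and few genes of any kind did. Hsd11b2 was at 68.5 against 25.9 CPM, and Slc26a4 at 9.07 against 27.6 CPM. The type A cells held 86 Slc26a4 UMIs in all, found in 25 cells, so its difference rests on few cells. The median log2 difference of the immediate-early list was -0.50.

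Proximal tubule transcripts were found in all type A cells, and markers of non-epithelial cells in some. The 15 proximal tubule markers summed to 8668 CPM in type A cells, against 11553 in principal, 7265 in type B-like and 60114 CPM in proximal tubule cells. Kap, the most abundant of them, had a UMI in every one of the 558 cells, with 16.7 to 613 per 10000 and a median of 57.1. The 15 principal cell markers, which include Aqp2 of the rule, summed to 624 CPM against 11725 CPM in principal cells and 364 CPM in proximal tubule. The connecting tubule list, which includes Klk1, summed to 8342 CPM against 30470 in principal cells, while the 4 type A markers summed to 7262 CPM. Endothelial markers summed to 91.9 CPM, stroma and smooth muscle markers to 88.7 CPM and haematopoietic markers to 26.6 CPM, with 0 UMIs of S100a8, Cd3e, Nphs1 and Wt1. Most of the endothelial and of the stroma and smooth muscle UMIs lay in few cells, and the haematopoietic UMIs did not. Of the 488 endothelial UMIs, 80.5% lay in 13 type A cells that had at least 5 per 10000 and 3 UMIs of the list. Likewise, 5 cells held 74.5% of the stroma and smooth muscle UMIs, and 10 cells held 72.0% of the Slc26a4, Hmx2 and Insrr UMIs. For haematopoietic markers 2 cells passed the same limits, with only 9.22% of that list's UMIs. In all 30 cells (5.38%) passed a limit, with a median of 10939 UMIs, and 12 of them were among the highest Scrublet scores. Without these 30 cells, 464 genes were higher and 499 lower than in principal cells, and 457 and 479 of these were among the genes counted with them.

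**Figure D5:**
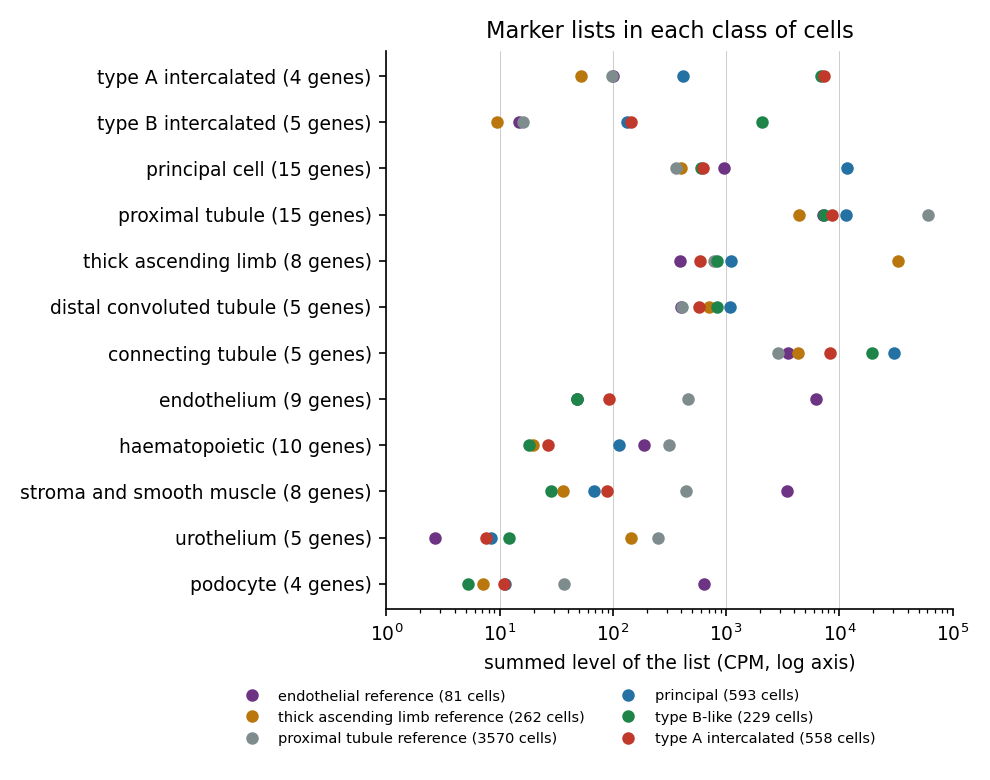
The summed level of each marker list in CPM (log axis) is shown for 6 classes of cells of the untreated library, and each point is 1 class. Type A cells lie beside type B-like cells for the type A list, which includes Slc4a1 and Aqp6 of the rule, and at 8668 CPM of proximal tubule markers, below the 60114 CPM of proximal tubule cells.

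The same rule found 44 cells of 8988 at day 2, 2 of 1930 at day 7 and 35 of 6946 at day 30 after IRI, which is 0.490, 0.104 and 0.504% of kept cells. Each count was below the minimum of 50 cells, so no comparison of genes was made between libraries. The share of barcodes removed by the mitochondrial limit was 29.5% in the untreated library and at most 0.644% in the others, and the lowest UMI total was 2335 untreated against 3881, 18362 and 5976. Without the mitochondrial limit the rule found 563, 44, 2 and 36 cells in time order.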

How the data were processed

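Transcripts were counted per cell in 4 libraries of GFP+ kidney cells, 1 for each group. The deposited matrices hold raw UMI counts per gene and barcode, made by the authors with Cell Ranger 7.0.1 on mouse build mm10, per the submitters' processing notes; per the file headers, the matrices were written by software version 3.0.1. No source used here names the annotation release. Depth was 68193456 UMIs in 9286 untreated barcodes.

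Cells were classed by the rules in the text. Summed UMIs of a class were divided by its total (CPM), with exact Poisson intervals, exact Clopper-Pearson intervals for shares and exact conditional intervals for ratios, all at 95%. For genes without a UMI the limit given is 3 UMIs of the class total. The code was tested on simulated data. The members and the 28 gene lists were chosen with earlier results of these data known. Named genes are the markers, list members by role, the 15 highest and 10 lowest ratios to principal cells, the 15 highest to other cells, and 8 each way to type B-like cells, at 50 CPM or more in the higher class and without the genes of the rules. Genes chosen after their values were seen are named as such. The 690 highest Scrublet scores (scanpy 1.11.5) were left out as an alternative. Other alternatives changed cell limits, scaling, free RNA, depth and filters. Python 3.11.15, numpy 2.4.6, scipy 1.17.1 and pandas 2.3.3 were used. Some genes of the lists are not reported here.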

Additional observations from a re-analysis of the deposited data

Results flagged for a closer look

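In the libraries that no comparison used, the level of Clu in the cells found by the same rule lay above the 190.4 CPM (179 to 203) of the untreated type A cells. These are values of 44, 2 and 35 cells and no comparison of conditions. The level was 900.1 CPM (817 to 989) in 44 cells at day 2, 3770 CPM (3205 to 4406) in 2 cells at day 7 and 520.1 CPM (448 to 601) in 35 cells at day 30. Median depth was 9939, 20954 and 10174 UMIs, against 9281.5 untreated. Principal cells of the same libraries stood at 14112, 10168 and 1893 CPM of Clu, against 947 CPM untreated. The libraries differ in injury and lowest depth together, which cannot be told apart, and the difference was not tested.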

How the results depend on the processing

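The number of selected cells was 558 and became 545 (10.3% of kept cells) with at most 30% mitochondrial UMIs and 486 (7.42%) with a minimum of 10 per 10000; the share stayed within its interval with Aqp2 below 2 or without high Scrublet scores. The counts of 2-fold genes moved over 1.5 times under the level filter alone. At 50 CPM they were 266 higher and 286 lower against principal cells, 422 and 415 against all others, and 138 and 63 against type B-like cells. With no minimum they were 2104 and 3240, 2009 and 6978, and 3213 and 1039. Fewer or more genes tested is what these filters change. Clu stood at 172.1 CPM with the minimum of 10, 171.4 CPM without high Scrublet scores and 220.0 CPM over non-mitochondrial UMIs, and principal cells were over 2-fold higher in every setting run. Of 32 genes followed, none reversed, and Igfbp5, Car12, Fxyd4 and Hsd11b2 crossed 2-fold in at least 1 setting. Igfbp5 did so against principal cells only, where its ratio was 0.601. It became 0.448 without high Scrublet scores, 0.497 with free RNA subtracted and 0.255 without the cells that carried other cell types' genes. Car12 did so against all other kept cells only, where its ratio was 2.13. It became 1.79 with the median set to 0, 1.991 with at most 30% mitochondrial UMIs and 1.997 over non-mitochondrial UMIs. Fxyd4 (1.44, and 2.01 without high Scrublet scores) and Hsd11b2 (0.617, and 0.347 with free RNA subtracted) did so against type B-like cells only. The alternatives against type B-like cells, the left-out cells with other cells' genes and the class by Slc26a4 alone were chosen after seeing the data. The alternatives for cells after IRI were not run, since each library held under 50. No paired analysis was possible because each group is 1 library. Depth limits genes near 20 CPM.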

Other observations

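The transport and junction genes of the epithelium gave a further contrast. Cldn3, a claudin, stood at 84.4 CPM in type A cells against 29.7 CPM in type B-like cells, a ratio of 2.84 (2.23 to 3.66). Cldn4, which pairs with Cldn8 in the collecting duct, was lower than in principal cells at 30.9 against 84.1 CPM, while Cldn8 itself, at 310 against 247 CPM, did not differ 2-fold. Cdh16, kidney-specific cadherin, was lower at 509 against 1201 CPM. Of the 11 heat shock genes measured, only Hspb1 passed 2-fold, at 66.7 against 23.3 CPM in principal and 15.0 CPM in type B-like cells. Over all genes 7.06% were higher than in principal and 4.63% higher than in type B-like cells, so 1 of 11 is near these shares.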
